A study of Sus scrofa with 6 samples.

Results

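Cytochrome P450 enzymes (CYP genes) and flavin-containing monooxygenases (FMO genes) were followed through 3 tissues (fat, liver, muscle) in pigs of 2 breeds, the Berkshire and the Korean native pig. Every gene whose symbol places it in 1 of these 2 enzyme superfamilies was taken, 30 of the 25322 gene identifiers counted. Only 11804 identifiers (46.6%) could be given a symbol, so P450 genes without one are not analysed here. The RNA came from flash-frozen tissue, and there were 6 libraries, 1 for each breed in each tissue: Berkshire fat, liver and muscle and Korean native fat, liver and muscle. No treatment, genotype, age or sex is given for any group. The title of the series counts 3 Berkshire and 3 Korean native, which may mean pigs or tissues, and how many animals gave RNA to a library is not stated.

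Cytochromes P450 are heme proteins of the endoplasmic reticulum and mitochondria. They insert an oxygen atom into their substrates with electrons delivered by partner proteins. Families CYP1 to CYP3 mainly oxidise drugs, toxins and dietary compounds, whereas CYP7, CYP27, CYP39 and CYP51 enzymes act on sterols and bile acids, CYP11, CYP17 and CYP21 on steroid hormones, and CYP26 on retinoic acid. FMOs hold a flavin in place of heme and oxidise nitrogen and sulfur atoms of small molecules. Hepatocytes are known as the main site of most of these enzymes. In pigs, CYP2E1 and CYP2A19 are known for breaking down skatole, a bacterial product that taints the meat of entire males when it collects in fat.

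Counts on genes ranged from 5897407 to 7912093 per library. Levels are given below as CPM, counts per 1000000 counts on genes after scaling by TMM factors, which allow a gene to be compared between libraries but not with another gene, since they are not divided by gene length. Where 2 values stand side by side for a tissue, the Berkshire library comes first and the Korean native library second. A count of 0 allows a level of up to 0.294 to 0.692 CPM, the value of 3 counts in the library concerned, and covers counting error only. The tissue labels were checked against marker genes: all 18 measured hepatocyte markers were higher in liver than in both other tissues, all 8 measured muscle fibre markers were higher in muscle than in fat and liver, and the 6 measured adipocyte markers were lower in liver than in fat. Tissues were compared by edgeR's quasi-likelihood test with breed in the model and Benjamini-Hochberg adjustment over 13810 genes, and an adjusted p under 0.05 was called. With 1 library for each breed in each tissue, the spread behind these p-values is the departure of the breed difference from tissue to tissue. Nothing states whether the 2 libraries of a tissue represent 1 animal each, so the p-values measure only the spread between these libraries. In these whole tissues, fewer cells of a type and less RNA per cell cannot be told apart.

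Liver held most of the reads of the 30 P450 and FMO genes. The 30 genes together took 71819 counts of the Berkshire liver library, 1.13% of the counts on genes (95% exact binomial interval 1.12% to 1.14%), and 61782 counts of the Korean native one, 0.781% (0.775% to 0.787%). In fat they took 0.109% in Berkshire and 0.0663% in Korean native pigs. In muscle their share was 0.0353% in Berkshire and 0.00800% in Korean native pigs, the lowest of the 6 libraries. Of the 30 genes, 19 reached 10 CPM in at least 1 library, and 22 had enough counts to be tested. The tested genes CYP1A2, CYP2D6 and CYP2E1 passed the low-count filter (1.58 CPM before TMM scaling) through their liver libraries alone, so they had to be higher there. CYP26B1 passed through its fat libraries alone, so it had to be higher in fat. Outside liver, CYP7A1 (30 counts) and CYP7B1 (14 counts) reached this level in Korean native fat alone. Outside fat, CYP4B1 (40 counts) reached it in Berkshire muscle alone. CYP21A2 (6 and 1 counts) and CYP2F1 (4 and 3 counts) reached it in neither liver library. CYP27B1 (5 and 1 counts) reached it in neither muscle library. All of these genes are included in the counts and calls below, where their direction adds no independent support. Those not tested were CYP2W1, CYP26C1 and CYP46A1, at 0 in all 6 libraries, and CYP4F22, CYP11A1, CYP17A1, CYP24A1 and CYP26A1. None of these exceeded the level of CYP26A1 in Korean native liver, 11 counts or 1.82 CPM after TMM scaling.

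**Figure D1:**
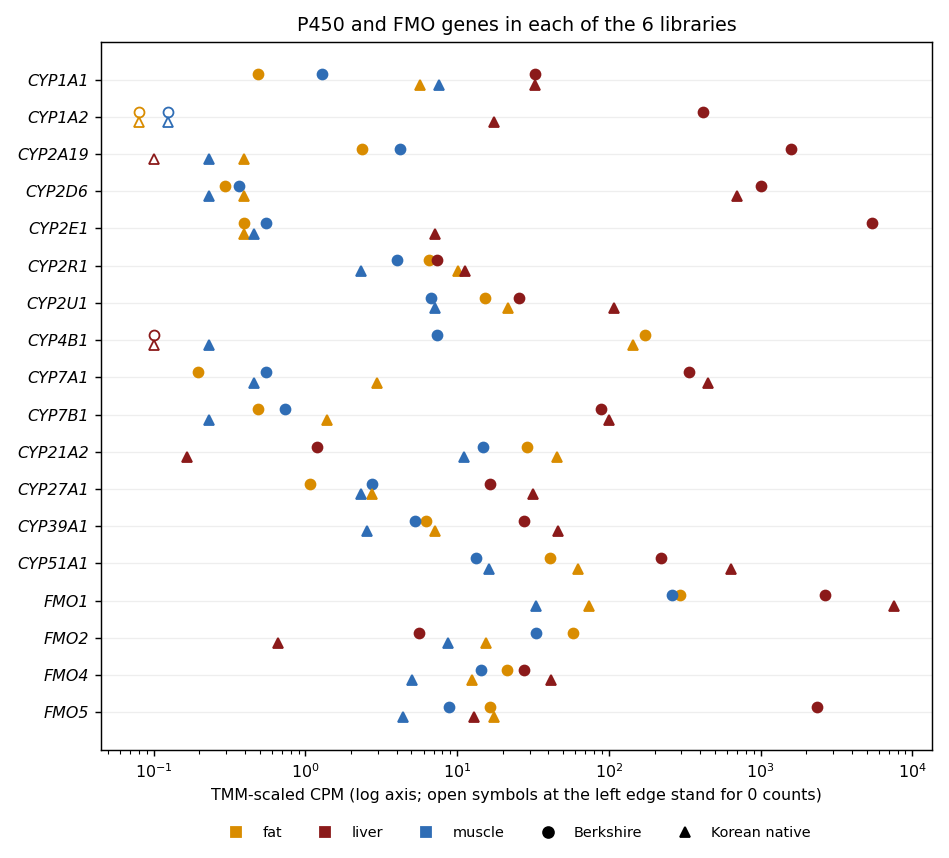
Level of P450 and FMO genes that reached 10 CPM in at least 1 library, in TMM-scaled CPM on a log axis, with colour for tissue and symbol shape for breed. The liver points lie to the right for most genes, CYP4B1, CYP21A2 and FMO2 lie lowest in liver, and CYP2E1, CYP2A19, FMO5 and CYP1A2 have 2 liver points far apart.

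The 3 comparisons between tissues share their libraries. Against fat, 12 of the 22 tested genes were higher in liver and 4 were lower, where 15.2% of all tested genes were called higher and 13.5% lower. Against muscle, 17 were higher in liver and 4 lower, where 18.6% of all tested genes were higher and 17.4% lower. The median log2 difference of the 22 genes was 3.29 against fat, compared with 0.06 over all tested genes, and 3.29 against muscle, compared with -0.01. Between muscle and fat none of the 22 was higher in muscle and 4 were lower, where 9.95% of all tested genes were higher and 6.43% lower, with a median log2 difference of -0.82 for the 22 genes and -0.05 for all. At an unadjusted p under 0.05, 8 of the 22 differed between muscle and fat, beside 4684 of the 13810 genes tested. DESeq2 also called none higher in muscle. With libraries scaled by total counts in place of TMM factors, the median log2 difference over all genes moved to -0.94 for liver minus fat, and that of muscle minus fat moved to -0.98. The share of calls that were higher then moved from 53.0% to 16.6% for liver against fat and from 60.7% to 12.7% for muscle against fat. With that scaling, against the shifted median, 11 of the 22 genes were called lower in muscle than in fat. The share of all tested genes called lower at that setting is not given here. The number is therefore not read as a result about these genes.

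The drug and toxin oxidising families were led by genes that were abundant in liver and almost absent elsewhere. CYP2D6, which metabolises many basic drugs, stood at 1004 and 703 CPM in liver. In the 4 fat and muscle libraries it lay between 0.231 and 0.394 CPM, so the groups did not come near each other. The log2 difference was 11.18 ± 0.54 (SE) against fat (edgeR adjusted p = 8.8e-05) and 11.38 ± 0.57 against muscle (adjusted p = 7.5e-05).

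CYP1A2, an oxidase of caffeine and aromatic amines, had 0 counts in all 4 fat and muscle libraries. In liver it stood at 415 and 17.6 CPM, far apart from each other but both above the limit that 0 counts allow. Set against 3 counts per library, liver was at least 734-fold higher than fat (edgeR adjusted p = 0.00038) and at least 349-fold higher than muscle (adjusted p = 0.00036). These bounds rest mainly on the Berkshire liver library, and the Korean native liver alone was at least 59.6-fold higher than fat and 28.3-fold higher than muscle. Without Berkshire liver both calls held. Its neighbour CYP1A1, the oxidase of polycyclic aromatic hydrocarbons that many tissues can induce, was level in the 2 livers. It was at 32.8 and 32.5 CPM in liver. In fat CYP1A1 was at 0.490 and 5.72 CPM, and in muscle at 1.28 and 7.61 CPM, so all 4 values lay below the liver. The difference was 4.00 ± 0.80 on the log2 scale against fat (edgeR adjusted p = 0.010) and 3.40 ± 0.80 against muscle (adjusted p = 0.015). Without Berkshire liver these values were 2.64 and 1.93, both still called. Without Berkshire muscle the difference from muscle was 2.77 and was not called (adjusted p = 0.087), nor was it without breed in the model (2.91, adjusted p = 0.062).

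CYP2E1, the ethanol and skatole oxidase, differed widely between the 2 liver libraries, and its tissue difference had a wide error. Its level was 5397 CPM in the Berkshire liver library and 7.13 CPM in the Korean native one, and between 0.392 and 0.549 CPM in the 4 other libraries. Both liver values thus lay above every fat and muscle value. Liver exceeded fat by 11.09 ± 2.74 on the log2 scale (edgeR adjusted p = 0.023) and muscle by 11.36 ± 2.79 (adjusted p = 0.018). Without Berkshire liver the differences were 4.17 against fat and 3.81 against muscle, both still called. They were 4.58 without Berkshire fat (adjusted p = 0.10) and 4.67 without Berkshire muscle (adjusted p = 0.22), which were not called.

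CYP2A19, the pig enzyme of the CYP2A subfamily that oxidises coumarin and skatole, was abundant in 1 library alone. It had 1585 CPM in the Berkshire liver library and 0 counts in the Korean native one, which allows up to 0.497 CPM there. Fat held 2.35 and 0.394 CPM, and muscle 4.21 and 0.231 CPM. The Korean native liver thus lay below the fat and muscle of the Berkshire and could not be told from the Korean native fat and muscle. The log2 difference of liver against muscle was 7.75 ± 2.29 (edgeR adjusted p = 0.036) and that against fat 7.85 ± 2.56 (adjusted p = 0.059). Without Berkshire liver the sign turned in both comparisons, to -4.69 against muscle (adjusted p = 0.26) and -4.19 against fat (adjusted p = 0.36). Without Berkshire muscle the difference from muscle was 2.03 (adjusted p = 0.76), and neither DESeq2 (7.04, adjusted p = 0.065) nor the model without breed (8.41, adjusted p = 0.065) called it. Against fat the result was equally unsettled: it was -0.88 without Berkshire fat, but 8.14 and called without Berkshire muscle, 9.23 and called without either Korean native fat or Korean native liver, and 8.21 and called without Korean native muscle. Without the low-count filter (7.85) and with limma-voom (7.81) it was also called. CYP2A and CYP2D genes occur as near-identical copies. Multiply aligned reads were counted for no gene, and were 20.8% of all entries in Berkshire liver and 17.1% in Korean native liver. How many of them came from such copies is not given in the sources used here.

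The remaining CYP2 genes were low or widespread. CYP2U1, a fatty acid hydroxylase, stood at 25.6 and 108 CPM in liver. It was at 15.3 and 21.7 CPM in fat and at 6.77 and 7.15 CPM in muscle, with no overlap between tissues. It was higher in liver than in muscle by 3.00 ± 0.54 on the log2 scale (edgeR adjusted p = 0.0054). Its difference from fat, 1.64 ± 0.49 (adjusted p = 0.045), was lost without Korean native liver (0.65), Korean native fat (1.25) or Berkshire fat (1.95), without breed in the model (1.86) and with total-count scaling (0.65). CYP2R1, a vitamin D 25-hydroxylase, was at 7.40 and 11.3 CPM in liver, 6.56 and 10.1 CPM in fat and 4.03 and 2.31 CPM in muscle. Its liver and fat values overlapped. The difference of liver from muscle, 1.49 ± 0.48 (adjusted p = 0.049), was not called without Berkshire liver (1.77), Korean native liver (1.22) or Korean native muscle (0.87), by DESeq2 (1.48) or with total-count scaling (1.40), and was 2.28 without Berkshire muscle. CYP2F1 did not exceed 4.38 CPM in any library. It was lower in liver than in muscle, with a log2 difference of -2.55 ± 0.67 (edgeR adjusted p = 0.024), a call lost without Berkshire muscle (-2.50), Korean native liver (-1.87) or Korean native muscle (-2.62) and with DESeq2 (-2.57).

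CYP4B1, which oxidises fatty acids and some plant toxins, was highest in fat. It stood at 173 and 144 CPM in fat (mean 158 ± 20.6, SD, n = 2). Both liver libraries had 0 counts, and muscle had 7.32 and 0.231 CPM, so fat stood apart from both other tissues. Against 3 counts per library, CYP4B1 was at least 288-fold lower in liver than in fat (edgeR adjusted p = 0.0018). It was also lower in muscle than in fat, with a log2 difference of -5.76 ± 0.87 (adjusted p = 0.010). This difference was called under every alternative, at -9.00 without Berkshire fat and -9.29 without Berkshire muscle. Liver was also lower than muscle, by at least 6.88-fold (adjusted p = 0.036). That call rested on muscle counts of 40 and 1. The fitted log2 difference was -7.49 and was not called without Berkshire muscle (-3.89), without Berkshire liver (-6.76) or by DESeq2 (-6.10). Of the 6 measured adipocyte markers, 5 were also lower in muscle than in fat and 1 was not called. Their summed level was 4696 and 3719 CPM in fat, 661 and 459 CPM in muscle and 55.0 and 52.4 CPM in liver. Their part in the CYP4B1 result was not tested.

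All 4 measured bile acid enzymes were higher in liver than in fat and muscle, and none of these 8 calls was lost under any alternative. CYP7A1 and CYP7B1 among them had passed the low-count filter largely through liver. CYP7A1, the rate-limiting enzyme of the classic route of bile acid synthesis, stood at 340 and 452 CPM in liver. Its 4 other values lay between 0.196 and 2.96 CPM. The log2 difference was 8.27 ± 0.81 against fat (edgeR adjusted p = 0.00054) and 9.59 ± 0.92 against muscle (adjusted p = 0.00035). In the RefSeq annotation CYP7A1 overlaps SDCBP, which lay between 97.1 and 188 CPM in all 6 libraries. Whether reads of SDCBP were counted for CYP7A1 was not tested. CYP7B1, the oxysterol 7-hydroxylase of the alternative route, had 89.4 and 101 CPM in liver and 0.231 to 1.38 CPM elsewhere. It exceeded fat by 6.67 ± 0.54 (adjusted p = 0.00024) and muscle by 7.48 ± 0.61 (adjusted p = 0.00019). In liver the 2 breeds lay close to each other in both genes.

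CYP27A1 and CYP39A1 had smaller liver differences, and fat and muscle also held reads of them. CYP27A1, the mitochondrial sterol 27-hydroxylase, was at 16.4 and 31.5 CPM in liver. It was at 1.08 and 2.76 CPM in fat and 2.75 and 2.31 CPM in muscle, giving log2 differences of 3.65 ± 0.46 (edgeR adjusted p = 0.0015) and 3.12 ± 0.47 (adjusted p = 0.0025). CYP39A1, which acts on 24-hydroxycholesterol, was at 27.6 and 46.2 CPM in liver. In fat it was at 6.27 and 7.20 CPM and in muscle at 5.31 and 2.54 CPM, with log2 differences of 2.44 ± 0.44 (adjusted p = 0.0070) and 3.18 ± 0.49 (adjusted p = 0.0026). Neither gene overlapped between liver and the other tissues. Relative to fat, CYP39A1 was still called with total-count scaling, at 1.44 on the log2 scale.

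CYP51A1, the lanosterol demethylase of cholesterol synthesis, was found in every tissue and ordered liver, fat, muscle in both breeds. It stood at 222 and 637 CPM in liver, 40.9 and 62.9 CPM in fat and 13.4 and 16.1 CPM in muscle. No tissue overlapped with another, and the Korean native value was above the Berkshire value in each. Liver exceeded fat by 2.93 ± 0.41 on the log2 scale (edgeR adjusted p = 0.0024, 1.93 with total-count scaling) and muscle by 4.70 ± 0.45 (adjusted p = 0.00035). Muscle was below fat, with a log2 difference of -1.77 ± 0.40 (adjusted p = 0.029). This last call was lost without Berkshire fat (-1.59), Korean native fat (-1.91) or Korean native muscle (-1.40) and without breed in the model (-1.82), and was -2.69 and still called with total-count scaling.

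**Figure D2:**
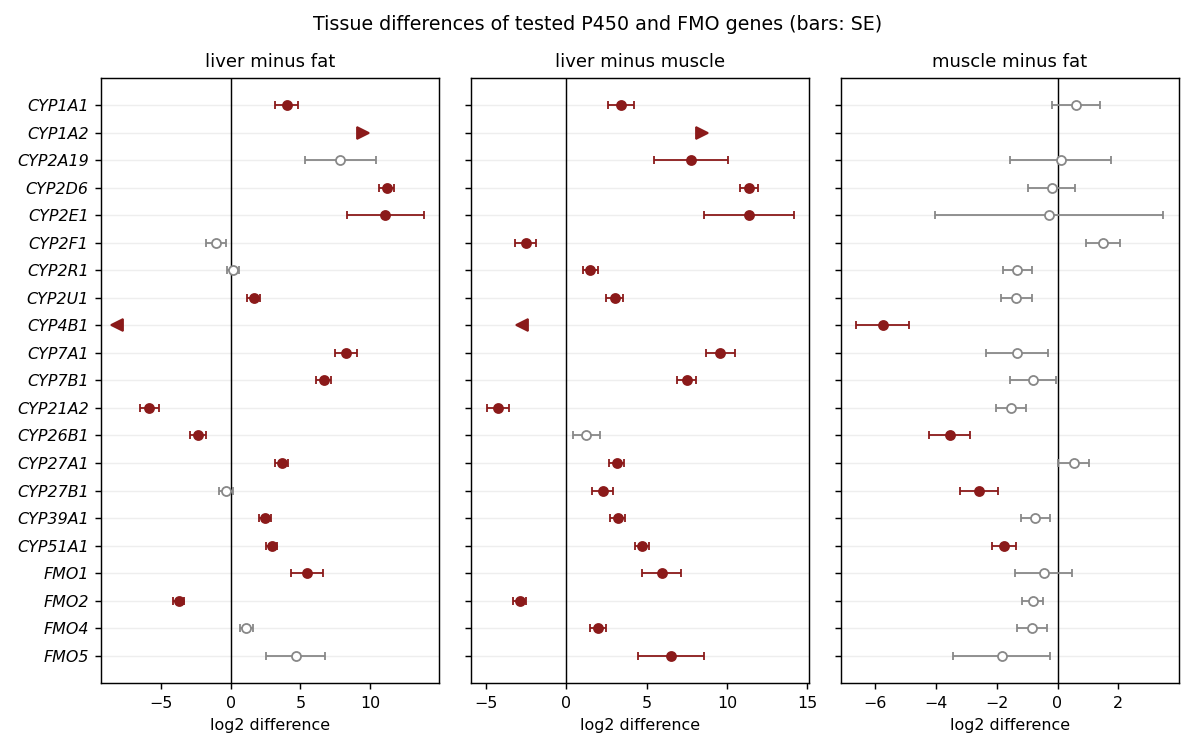
Log2 difference between tissues of tested P450 and FMO genes, with bars of 1 SE, from the model with breed as a term, 1 panel per pair of tissues. Filled points passed an adjusted p of 0.05, open points did not, and triangles mark lower bounds where a tissue had 0 counts. Most calls lie to the right in both liver panels, with 4 to the left in each, and in the muscle panel 0 lie to the right and 4 to the left.

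Among the genes of steroid hormones, CYP21A2 was the one that reached 10 CPM. It encodes the adrenal steroid 21-hydroxylase. Its level was 29.0 and 45.4 CPM in fat, 14.8 and 11.1 CPM in muscle and 1.20 and 0.166 CPM in liver. It was lower in liver than in both other tissues, with log2 differences of -5.83 ± 0.68 against fat (edgeR adjusted p = 0.0011) and -4.29 ± 0.69 against muscle (adjusted p = 0.0033). The difference of muscle from fat, -1.54, was not called (adjusted p = 0.076), although it was called without Berkshire fat (-2.22), without either liver library (-1.49), without the low-count filter (-1.56) and with total-count scaling (-2.47). Without Korean native fat it was -0.77.

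The CYP21A2 counts ran alongside those of TNXB, an extracellular matrix gene that overlaps it in the RefSeq annotation. TNXB had 300 and 637 CPM in fat, 225 and 143 CPM in muscle and 7.20 and 7.79 CPM in liver. The log2 difference of its liver level was -5.93 against fat (edgeR adjusted p = 0.00047) and -4.64 against muscle (adjusted p = 0.00077). CYP21A2 had 9.66% and 7.13% of the TNXB count in fat, 6.59% and 7.74% in muscle, and 16.7% (6 counts) and 2.13% (1 count) in liver. Without the strand and overlap settings of the counting, reads of the 2 genes cannot be told apart. The other steroid hormone genes were close to 0: CYP11A1, which starts steroid synthesis from cholesterol, reached at most 0.887 CPM, and CYP17A1 at most 0.200 CPM. Of 7 listed markers of adrenal and gonadal steroid cells, 2 were measured, and their summed level did not exceed 0.497 CPM.

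The vitamin D and retinoic acid genes were low in these tissues. CYP26B1, which clears retinoic acid, was highest in fat, at 3.92 and 3.55 CPM, and did not exceed 0.800 CPM in liver or 0.366 CPM in muscle. It was lower than in fat in both other tissues, a direction fixed by its passing the low-count filter in fat alone, with log2 differences of -2.33 ± 0.57 for liver (edgeR adjusted p = 0.022) and -3.55 ± 0.67 for muscle (adjusted p = 0.016). The first call was lost without any 1 of the 4 fat and liver libraries (-2.21 to -2.44) and with DESeq2 (-2.41). The second was lost without Berkshire fat (-3.67), Korean native fat (-3.44) or Korean native muscle (-3.37). CYP27B1, the vitamin D 1-alpha-hydroxylase known mainly from kidney, was at 4.60 and 2.17 CPM in fat, 4.40 and 1.33 CPM in liver and 0.915 and 0.231 CPM in muscle, with the Berkshire library higher in each tissue. Muscle was below liver (liver minus muscle 2.25 ± 0.65, adjusted p = 0.033) and below fat (muscle minus fat -2.59 ± 0.62, adjusted p = 0.034). The difference from liver was lost without Berkshire fat (2.28), Berkshire liver (1.94), Berkshire muscle (2.66), Korean native liver (2.41) or Korean native muscle (2.09), by DESeq2 (2.28) and without breed in the model (2.20). That from fat was lost without Berkshire fat (-3.01), Berkshire muscle (-3.10), Korean native fat (-2.33) or Korean native muscle (-2.43), by DESeq2 (-2.72) and without breed in the model (-2.46).

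FMO genes differed in where they were found. FMO1, which is the liver form in many mammals, was present in all 3 tissues. It stood at 2669 and 7589 CPM in liver. In fat it was at 293 and 74.2 CPM, and in muscle at 262 and 33.2 CPM, so fat and muscle overlapped while liver stood above both. The log2 difference was 5.48 ± 1.17 against fat (edgeR adjusted p = 0.013) and 5.94 ± 1.21 against muscle (adjusted p = 0.0090). Without Korean native liver these were 2.92 and 3.57, both called, and without Korean native fat the difference from fat was 4.68 and not called (adjusted p = 0.070).

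FMO2, the form known from lung, ran the other way, with its lowest values in liver. Its level was 57.8 and 15.4 CPM in fat, 33.1 and 8.77 CPM in muscle and 5.60 and 0.663 CPM in liver. The log2 difference of liver was -3.72 ± 0.41 against fat (edgeR adjusted p = 0.00092) and -2.91 ± 0.41 against muscle (adjusted p = 0.0019), lower in both. The call against muscle was lost without breed in the model (-2.78, adjusted p = 0.078). FMO2, FMO1 and FMO4 lie next to each other among the protein-coding genes of the RefSeq annotation.

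FMO4 had the smallest fitted liver differences of the FMO genes described. It was at 27.4 and 41.3 CPM in liver, 21.3 and 12.6 CPM in fat and 14.3 and 5.07 CPM in muscle. Liver exceeded muscle by 1.96 ± 0.52 on the log2 scale (edgeR adjusted p = 0.024), which was lost without Korean native liver (1.10) or Korean native muscle (1.31). The difference from fat, 1.13 ± 0.49, was not called (adjusted p = 0.13), was 1.87 and called without Berkshire liver, and was 0.20 without Korean native liver and 0.13 with total-count scaling. FMO5, which acts as a Baeyer-Villiger oxidase, was at 2351 and 12.9 CPM in liver. Fat held 16.4 and 17.6 CPM and muscle 8.79 and 4.38 CPM, so Korean native liver lay below both fat libraries. Its overlapping neighbour CHD1L lay between 19.6 and 60.8 CPM in all 6 libraries. Liver exceeded muscle by 6.50 ± 2.07 (adjusted p = 0.047), and this was lost without Berkshire liver (1.18), Berkshire muscle (4.48) or Korean native muscle (7.16). The difference from fat, 4.66 ± 2.09, was not called (adjusted p = 0.14), turned to -0.22 without Berkshire liver and was 1.65 without Berkshire fat. It was called without Korean native liver (6.90), without Korean native fat (6.36) and without breed in the model (6.12).

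The 2 liver libraries lay far apart in 4 of these genes and close together in others. There is 1 liver library per breed, so these ratios have no replicate check, cover counting error only and compare libraries rather than breeds. A gene was considered when 1 of the 2 libraries reached 10 CPM, and a ratio of at least 4 was taken as apart. Of 16 such P450 and FMO genes, 4 were at least 4-fold lower in Korean native liver and 1 at least 4-fold higher, where 1.41% of all 8357 genes considered were lower by that much and 1.36% higher. Without regard to size, 10 of the 16 were higher and 6 lower, with a median log2 ratio of 0.50, compared with 0.00 over all genes.

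CYP2E1 had 26975 counts in the Berkshire liver library and 43 in the Korean native one, a level 757-fold lower in the latter (95% interval 562 to 1047). CYP2A19 had 7921 counts and 0 counts, which makes it at least 3190-fold lower when set against 3 counts. FMO5 had 11749 and 78 counts, 182-fold lower (146 to 230). In the Korean native liver, CYP2A19 could not be told from the fat and muscle of the same breed, and FMO5 lay between those of muscle and fat, whereas CYP2E1, at 7.13 CPM, was still above all 4. CYP1A2 was 23.6-fold lower (19.4 to 29.0), from 2075 to 106 counts, and with 17.6 CPM it was still above the 0 counts of fat and muscle.

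The gene at least 4-fold higher in Korean native liver was CYP2U1, 4.23-fold (3.50 to 5.16). Also higher there were CYP51A1 at 2.87-fold (2.68 to 3.07) and FMO1 at 2.84-fold (2.79 to 2.90). The 4 bile acid enzymes were also on that side, by 1.92-fold for CYP27A1, 1.68-fold for CYP39A1, 1.33-fold for CYP7A1 and 1.13-fold for CYP7B1, whose interval of 0.994 to 1.27 includes no difference. FMO4 (1.51-fold) and CYP2R1 (1.52-fold) were higher in Korean native liver, CYP2D6 was 1.43-fold lower and CYP1A1 was 1.01-fold lower, with an interval of 0.816 to 1.25. Genes of the CYP2 family were therefore found on both sides. Shares were also taken of the reads of the 30 genes, which leave out P450 genes without a symbol. These shares are not divided by gene length. In Berkshire liver CYP2E1 took 37.6% of these reads (95% exact interval 37.2% to 37.9%), FMO1 18.6%, FMO5 16.4%, CYP2A19 11.0% and CYP2D6 6.99%. In Korean native liver FMO1 took 74.1% (73.8% to 74.5%), while FMO5 took 0.126%, CYP2E1 0.0696%, and CYP2A19 had 0 counts. CYP2D6 took 6.87% there.

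**Figure D3:**
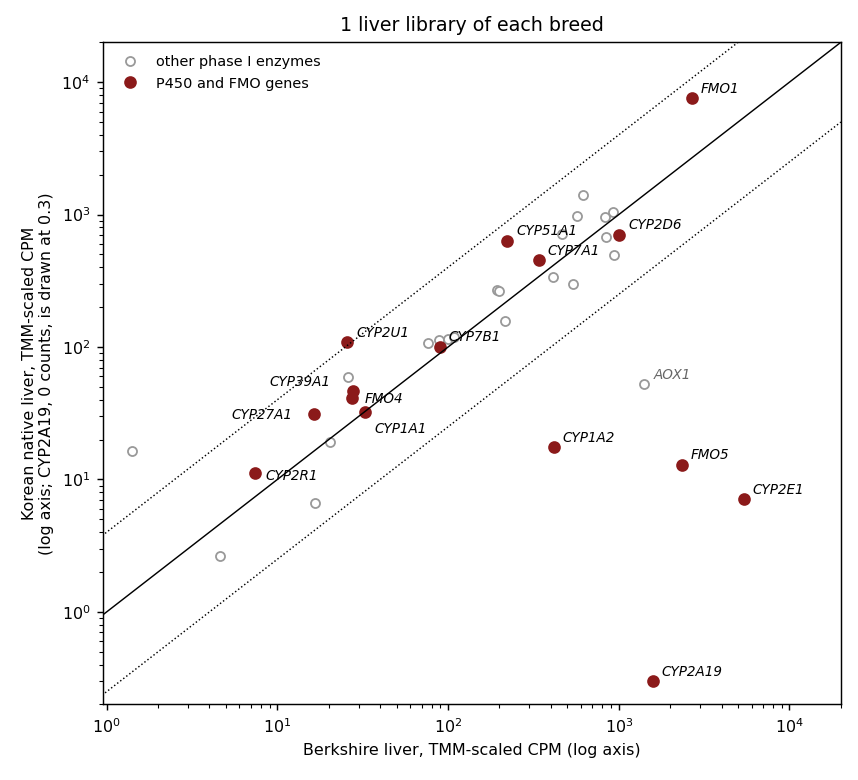
Level in Korean native liver against Berkshire liver, 1 library each, in TMM-scaled CPM on log axes, with the line of equal levels and dotted lines at a 4-fold ratio. Filled points are P450 and FMO genes and open points other phase I enzymes: CYP1A2, FMO5, CYP2E1 and CYP2A19 lie far below the lower dotted line, with AOX1 beside them, and CYP2U1 lies just above the upper one.

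Of 18 hepatocyte markers considered, 5 were higher and 13 lower in Korean native liver, none by 4-fold, with a median log2 ratio of -0.18, and their summed level was 250569 and 277017 CPM. ALB, the albumin gene, was at 176485 and 212897 CPM. CYP2E1, CYP1A2 and CYP2A-type enzymes are known to lie around the central vein of the liver lobule, and other genes of that zone were examined. Of 6 considered, 4 were higher in Korean native liver, 1 of them (AHR) at least 4-fold, and 2 were lower. The higher genes were OAT (147 and 246 CPM), SLC1A2 (13.6 and 24.2 CPM) and the transcription factors AHR and NR1I3, given below. TBX3 (72.2 and 49.0 CPM) and RGN (58.4 and 35.3 CPM) were lower. AXIN2 (17 and 5 counts) and LGR5 (12 and 6 counts) were under 10 CPM in both livers and were not considered. GLUL, the usual marker, is not analysed here. Of 10 genes known from around the portal vein, 3 were higher and 7 lower, with a median log2 ratio of -0.50. PCK1, a gluconeogenic enzyme, was the 1 at least 4-fold lower, at 2339 and 294 CPM. CPS1 (4333 and 3033 CPM) and ASS1 (1718 and 1114 CPM) were lower by less than 4-fold. Their part in the P450 results was not tested.

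Erythroid genes moved with the liver library. Both considered were over 4-fold higher in Korean native liver: HBB, the beta-globin gene, was at 233 and 2031 CPM, and ALAS2, the heme synthesis enzyme of red cell precursors, at a level 6.95-fold higher in the Korean native library, 97.3 CPM. The summed level of the 4 measured erythroid genes was 249 and 2135 CPM. The 5 measured macrophage markers had sums of 364 and 294 CPM, 4 of them lower in Korean native liver and MARCO higher, at 9.80 and 83.8 CPM. The part of these cells in the P450 results was not tested.

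In fat and muscle, among genes that reached 10 CPM, FMO1 and FMO2 had the largest ratios between the breeds. No P450 or FMO gene among the 9 considered in fat reached a 4-fold ratio, where 0.625% of all genes were at least 4-fold higher in Korean native fat and 0.851% lower. FMO1 was nearest to it, 3.95-fold lower in Korean native fat, followed by FMO2 at 3.76-fold lower and FMO4 at 1.68-fold lower. CYP4B1 was 1.20-fold lower, while CYP21A2 (1.57-fold), CYP51A1 (1.54-fold), CYP2R1 (1.53-fold), CYP2U1 (1.42-fold) and FMO5 (1.07-fold) were higher.

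In muscle 5 genes were considered, and 1 was at least 4-fold lower in the Korean native library and none at least 4-fold higher, where 1.65% of all genes were lower and 1.16% higher by that much. This gene was FMO1, 7.90-fold lower (95% counting interval 6.65 to 9.44). FMO2 was 3.78-fold lower and FMO4 2.81-fold lower, so all 3 FMO genes considered in muscle were on the same side. CYP21A2 was 1.34-fold lower and CYP51A1 1.21-fold higher. Adipocyte markers had a summed level of 661 and 459 CPM in muscle, and fibroblast markers 21179 and 4762 CPM. Of 6 adipocyte markers considered there, 5 were lower in the Korean native library, 3 of them at least 4-fold, and 1 was higher. Of 6 fibroblast markers considered, 5 were lower, 2 of them at least 4-fold, and 1 was higher. Their part in the FMO results was not tested. CYP1A1, under 10 CPM in fat and muscle, had larger ratios that rest on few counts. It was 11.7-fold higher in Korean native fat, from 5 and 58 counts, and 5.94-fold higher in Korean native muscle, from 7 and 33 counts.

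**Figure D4:**
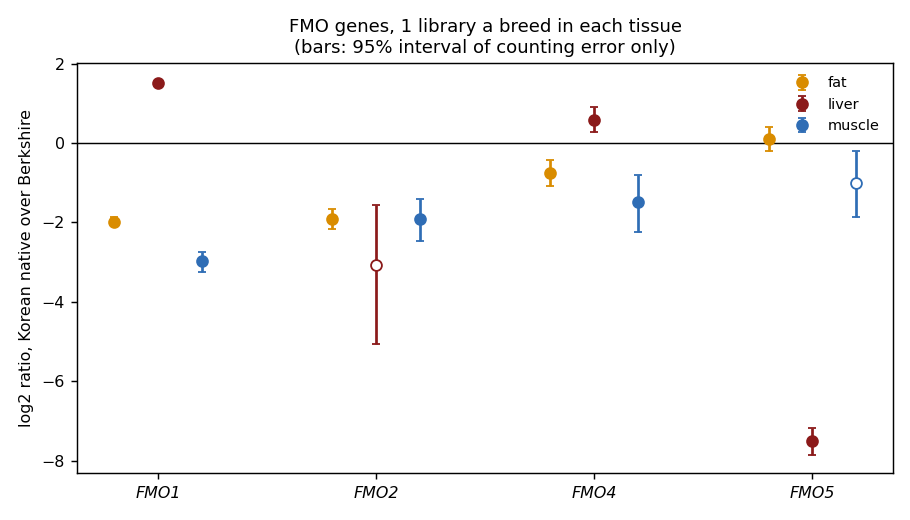
Log2 ratio of Korean native to Berkshire level for FMO1, FMO2, FMO4 and FMO5 in each tissue, 1 library per breed, with 95% intervals of counting error only and open points for genes under 10 CPM in both libraries. FMO2 lies below 0 in all 3 tissues, FMO1 and FMO4 lie above 0 in liver and below it in fat and muscle, and FMO5 is far below 0 in liver alone.

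Over the 3 tissues together no P450 or FMO gene differed between the breeds by edgeR's quasi-likelihood test, where 0.109% of all tested genes did. At an unadjusted p under 0.05, 8 of the 22 tested genes did, among them CYP1A1, CYP1A2, CYP2A19, CYP2E1, CYP27B1, CYP51A1 and FMO2. Over all tested genes this held for 1103 of 13810. DESeq2 called 1, FMO2, and limma-voom called none. FMO2 was lower in the Korean native library in all 3 tissues, 3.76-fold in fat, 3.78-fold in muscle and 8.45-fold in liver, where it rested on 28 and 4 counts. Its fitted log2 difference was -2.12 ± 0.31 with an edgeR adjusted p of 0.12, and its DESeq2 adjusted p was 0.00043. It was also called without the low-count filter (adjusted p = 0.013) and without Korean native liver (-1.91, adjusted p = 0.049). Leaving out 1 library in turn gave 0 to 3 called genes. The shares of all tested genes called in those fits, or by DESeq2 and limma-voom, are not given here. Such numbers are therefore not read as a result about these genes. The number was 3 without the Korean native liver library, 2 without the Korean native fat library or without either the fat or the liver of the Berkshire, 1 without the Korean native muscle and 0 without the Berkshire muscle. CYP51A1 was higher and CYP27B1 lower in the Korean native library of each tissue.

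The proteins that serve P450 enzymes were followed as lists. Of 9 listed redox partners 5 were measured, and 2 were higher in liver than in fat, 4 higher than in muscle and 1 lower in muscle than in fat. Of all tested genes, 15.2% were called higher in liver than in fat and 18.6% higher than in muscle. The share called lower in muscle than in fat was 6.43%. CYB5A, the cytochrome b5 that passes electrons to many P450s, was at 1015 and 614 CPM in liver, 80.8 and 85.2 CPM in fat and 37.3 and 32.3 CPM in muscle. PGRMC1, a heme-binding partner, was at 1110 and 1579 CPM in liver and at most 96.7 CPM elsewhere. Both genes were far above the other tissues in both livers, and neither reached a 4-fold ratio between them. POR, the common reductase, is not analysed here. Of 7 measured heme synthesis genes, 3 were higher in liver than in fat and 2 higher than in muscle. Beside the shares over all genes, these numbers are not read as a result about the list. ALAS1, their rate-limiting enzyme, was at 344 and 262 CPM in liver, 26.5 and 40.6 CPM in fat and 56.4 and 86.7 CPM in muscle. All 3 measured heme breakdown genes were higher in liver than in both other tissues.

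Transcription factors known to act on P450 genes were followed as a list that includes regulators of hepatocytes. Of 17 measured, 13 were higher in liver than in fat and 14 higher than in muscle, with none called lower. Among all tested genes 15.2% were higher than in fat and 18.6% higher than in muscle. HNF4A, a factor of hepatocyte identity, was at 949 and 811 CPM in liver and at most 0.394 CPM elsewhere. NR1I2, the pregnane X receptor that responds to drugs, was at 172 and 221 CPM in liver, and NR1I3, the constitutive androstane receptor, at 58.0 and 61.8 CPM. These 3 factors differed by less than 4-fold between the 2 livers. AHR, the receptor of aromatic hydrocarbons that induces CYP1 genes, was at 73.2 and 304 CPM in liver, 4.15-fold higher in the Korean native library. It was the 1 factor of the 17 past a 4-fold ratio in liver, where 1.36% of all genes considered were that much higher. In the same library CYP1A2 was lower and CYP1A1 alike. The part of AHR in the levels of these genes was not tested.

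Of 22 measured phase I enzymes outside the P450 and FMO families, 17 were higher and 1 lower in liver than in fat, and 19 were higher than in muscle. For all tested genes these shares were 15.2% higher and 13.5% lower than in fat, and 18.6% higher than in muscle. Between the 2 livers 21 were considered: in Korean native pigs 13 of them were higher and 8 lower, with a median log2 ratio of 0.22. AOX1, the aldehyde oxidase that acts on skatole products, was 27.1-fold lower, at 1414 and 52.2 CPM. CBR3, a carbonyl reductase, was the 1 past 4-fold in the other direction, at 1.40 and 16.4 CPM. The remaining 19 lay within 4-fold. Over all genes considered in liver, 1.41% were at least 4-fold lower and 1.36% at least 4-fold higher.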

How the data were processed

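Total RNA of 6 pig tissue samples (2 breeds, 3 tissues, 1 library each) was extracted with Trizol, and 1 µg went into each Illumina TruSeq library, per the labels' protocols. Per the submitters' processing notes, the authors used TopHat, HTSeq 0.5.3p3 and the Sscrofa10.2 build, and the deposited values are raw read counts for each Ensembl gene ID. Whether counting used strand, how it treated overlaps and which annotation it used are not stated in any source used here, so a gene's reads may include those of a gene that overlaps it. The 5 closing entries of each file that name no gene entered neither library sizes nor tests. Among all entries of a library, reads outside annotated genes were 45.9% to 52.5% and multiply aligned reads 14.1% to 20.8%.

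Symbols came from the supplied table of gene names. Neighbouring and overlapping genes were read from RefSeq's Sscrofa11.1 annotation, a build other than that of the files, so none of its coordinates is used. No protein or promoter sequence was at hand.

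Tissues were compared in R 4.3.3 with edgeR 4.0.16, using filterByExpr (13810 genes kept), TMM factors, an additive model of tissue and breed, and the two-sided quasi-likelihood test with Benjamini-Hochberg adjustment at 0.05. The model had 2 residual degrees of freedom, and its biological coefficient of variation was 29.5%. Each SE was derived from the test, by dividing the log2 value by the root of its F statistic. The breed term gave the comparison over tissues. Breeds within a tissue have 1 library each and no test. Their ratios were taken from TMM-scaled CPM, with a prior count of 2 for the 4-fold rule and 95% exact binomial intervals that cover counting error only. Where a group had 0 counts, 3 counts per library were put in their place and the ratio given as a bound.

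The alternatives were DESeq2 1.42.0, limma-voom (limma 3.58.1), total-count scaling, no filter, no breed (or tissue) term, each library left out in turn, and other minimum levels and ratios for the comparison within a tissue. Breed served as the block that pairs the libraries of a tissue comparison. The procedure was tested on simulated counts. Members reaching 10 CPM in 1 library were named with all their values, others were counted (1 gene is included in the counts and is not reported here or drawn), and up to 4 genes per list could be named by highest mean level, with POR, ALAS1, NR1I2, NR1I3, AHR, HNF4A, GLUL and ALB. MARCO, CBR3, SLC1A2, RGN, AXIN2, LGR5 and the overlapping genes TNXB, SDCBP and CHD1L fall outside this rule and were chosen after values were seen. Members and lists were chosen with earlier results of these data known.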

Additional observations from a re-analysis of the deposited data

Results flagged for a closer look

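FMO1 moved in opposite directions between the breeds in different tissues. The log2 ratio of the Korean native to the Berkshire library was 1.51 in liver, -1.98 in fat and -2.97 in muscle. Each ratio compares 1 library with 1 library, and the difference between the tissues was not tested.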

How the results depend on the processing

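Of the 41 calls between tissues, 24 were kept under every alternative: 12 of 16 for liver against fat, 11 of 21 for liver against muscle and 1 of 4 for muscle against fat. The shares of all tested genes called under each alternative are not given, so the counts that follow show only how far the numbers moved. The counts of genes higher or lower in liver than in fat stayed within 1.5 times of the values given. So did the count of genes higher in liver than in muscle. The number lower in liver than in muscle was 2 with DESeq2 and 2 to 4 with 1 library left out, lowest without Berkshire muscle. The number lower in muscle than in fat was 11 with total-count scaling, 2 without the breed term and 1 to 7 with 1 library left out: 1 without Korean native fat or Korean native muscle, 2 without Berkshire fat and 7 without Berkshire liver. Genes differing between the breeds numbered 1 with DESeq2, 2 without the filter and 0 to 3 with 1 library left out. With 1 library left out, CYP2A19 ranged from -4.69 to 8.70 (log2) in liver against muscle and from -4.19 to 9.23 in liver against fat, and FMO5 ranged from -0.22 to 6.90 in liver against fat, each lowest without Berkshire liver. Within a tissue, a minimum of 1 CPM gave 2 genes at least 4-fold higher in Korean native fat, and 1 higher and 3 lower in muscle. A ratio of 2 gave 2 lower in fat, 4 higher in liver and 3 lower in muscle. Total-count scaling gave 1 lower in fat and 2 lower in muscle, and a minimum of 10 CPM in both libraries left 2 lower in liver. The cause of these changes was not tested, except that a lower minimum or ratio admits more genes and a minimum in both libraries drops genes that are low in 1. Levels under 0.294 to 0.692 CPM, depending on the library, cannot be told from 0.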
